A study of Mus musculus with 82 samples.

Results

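Accessible chromatin was described at the loci of 9 genes associated with pluripotency, Utf1, Eras, Fgf4, Lin28a, Lin28b, Tdgf1, Dppa2, Dppa4 and Gdf3, in mouse fibroblasts undergoing reprogramming. The genes were chosen by name, and a listed peak belonged to a gene when it overlapped it, or when its centre lay within 100 kb of a gene end and no other protein-coding gene had a nearer end. The 9 genes are among 21887 protein-coding genes, and 11 of the 55274 separate regions that the peak lists cover belonged to them. The cells were OG2-MEFs, embryonic fibroblasts that carry a green fluorescent reporter under Oct4 control, infected at passage 2 with retroviruses for OSKM (the factors Oct4, Sox2, Klf4 and c-Myc). All 4 groups received OSKM. Coordinates are 1-based on GRCm38 (mm10). They differed in a further construct, labelled Flag or RNase H1(D209N), and in the day of reprogramming, 3 or 7. RNase H1 degrades the RNA strand of RNA:DNA hybrids, and D209N is a substitution in its catalytic site. The labels name iCD1 and a stem cell medium with vitamin C as culture media without saying which served these libraries. The libraries are bulk samples, in which fewer cells of a type and less open chromatin per cell cannot be told apart.

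These genes mark the pluripotent state in several ways. Utf1 encodes a chromatin-associated protein of embryonic stem cells, and Dppa2 and Dppa4 encode a pair of DNA-binding proteins whose genes lie side by side. Fgf4 is a growth factor that drives stem cells toward differentiation, Tdgf1 (Cripto) is a co-receptor for Nodal, and Gdf3 is a ligand of the TGF-beta superfamily. Eras is a Ras-like GTPase of embryonic stem cells, and Lin28a and Lin28b bind precursors of the let-7 microRNAs and block their maturation. Utf1 and Fgf4 are textbook targets of Oct4 acting with Sox2. RNA levels of these genes were not analysed here.

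ATAC-seq, which inserts sequencing adapters into open chromatin with a transposase, was run on 50000 cells per library, with 2 libraries in each of the 4 groups. The deposited data are 1 list of peak positions per group, which may come from 1 of its libraries or from both, with no score, signal or count, so depth is unknown and no value below has a replicate error or a test. The lists held 36375 peaks for Flag day 3, 29189 for D209N day 3, 42439 for Flag day 7 and 40452 for D209N day 7. A peak missing from a list means only that none was called there. The shortest list, D209N day 3, is also the one with the fewest peaks at the 9 genes. Counts from lists limited by width to its length are given where they differ. That limit trims every list but D209N day 3. Cell type markers were counted by a peak within 1 kb of a gene end, which 55.9% (Flag) and 51.7% (D209N) of all coding genes had at day 3 and 61.5% and 60.4% at day 7. Fibroblast markers had it at 58.3% in both day 3 lists and 66.7% in both day 7 lists (7 and 8 of 12), near those shares, so the count does not identify the cells. Epithelial markers had it at 3 of 6 in Flag day 3, 2 in D209N day 3 and 5 in each day 7 list. Of the pluripotent markers Nanog, Esrrb, Zfp42 and Dppa5a, only Zfp42 had such a peak in any list. Macrophage markers had it at 1 of 4 genes and endothelial markers at 2 of 4 genes in every list.

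The 9 loci held fewer listed peaks per gene than coding genes as a whole. They held 7 assigned peaks in Flag and 5 in D209N at day 3, and 9 and 8 at day 7, which is between 1.71 and 2.12 per 10000 listed peaks. The mean per gene was 0.778 (Flag) and 0.556 (D209N) at day 3 and 1.00 and 0.889 at day 7, against 1.44, 1.17, 1.75 and 1.66 over all coding genes in that order. These means were not adjusted for the stretch in which a peak can be assigned to a gene. That stretch was shorter than the coding-gene median of 46.5 kb at Utf1, Eras, Fgf4, Lin28a, Tdgf1 and Gdf3. It was longer at Lin28b, Dppa2 and Dppa4. A gene-end peak, one that overlaps the 1 kb on either side of an annotated gene end, was present at 2 of the 9 genes in Flag day 3, against 55.9% of all coding genes. D209N day 3 had it at 1 of 9, against 51.7%, Flag day 7 at 3 of 9, against 61.5%, and D209N day 7 at 4 of 9, against 60.4%. Lin28a, Tdgf1, Dppa2, Dppa4 and Gdf3 had no gene-end peak in any list, as had 37.0% of coding genes. Tdgf1, Dppa2 and Dppa4 had no assigned peak of any kind. Over all coding genes 25.4% had none by the nearest end alone, a count that leaves out peaks that only overlap a gene and so overstates emptiness. Of the 11 regions, 4 were present in all 4 lists, against 39.4% of all regions, 2 were in 3 lists (13.0% of all regions), 2 in 2 lists (21.2%) and 3 in 1 list (26.3%). The 4 regions present throughout belonged to Utf1, Lin28b and Gdf3. When peaks narrower than the median of their list were set aside, the genes with a gene-end peak were Lin28b in Flag day 3, none in D209N day 3, and Utf1 and Lin28b at day 7 in both arms.

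**Figure D1:**
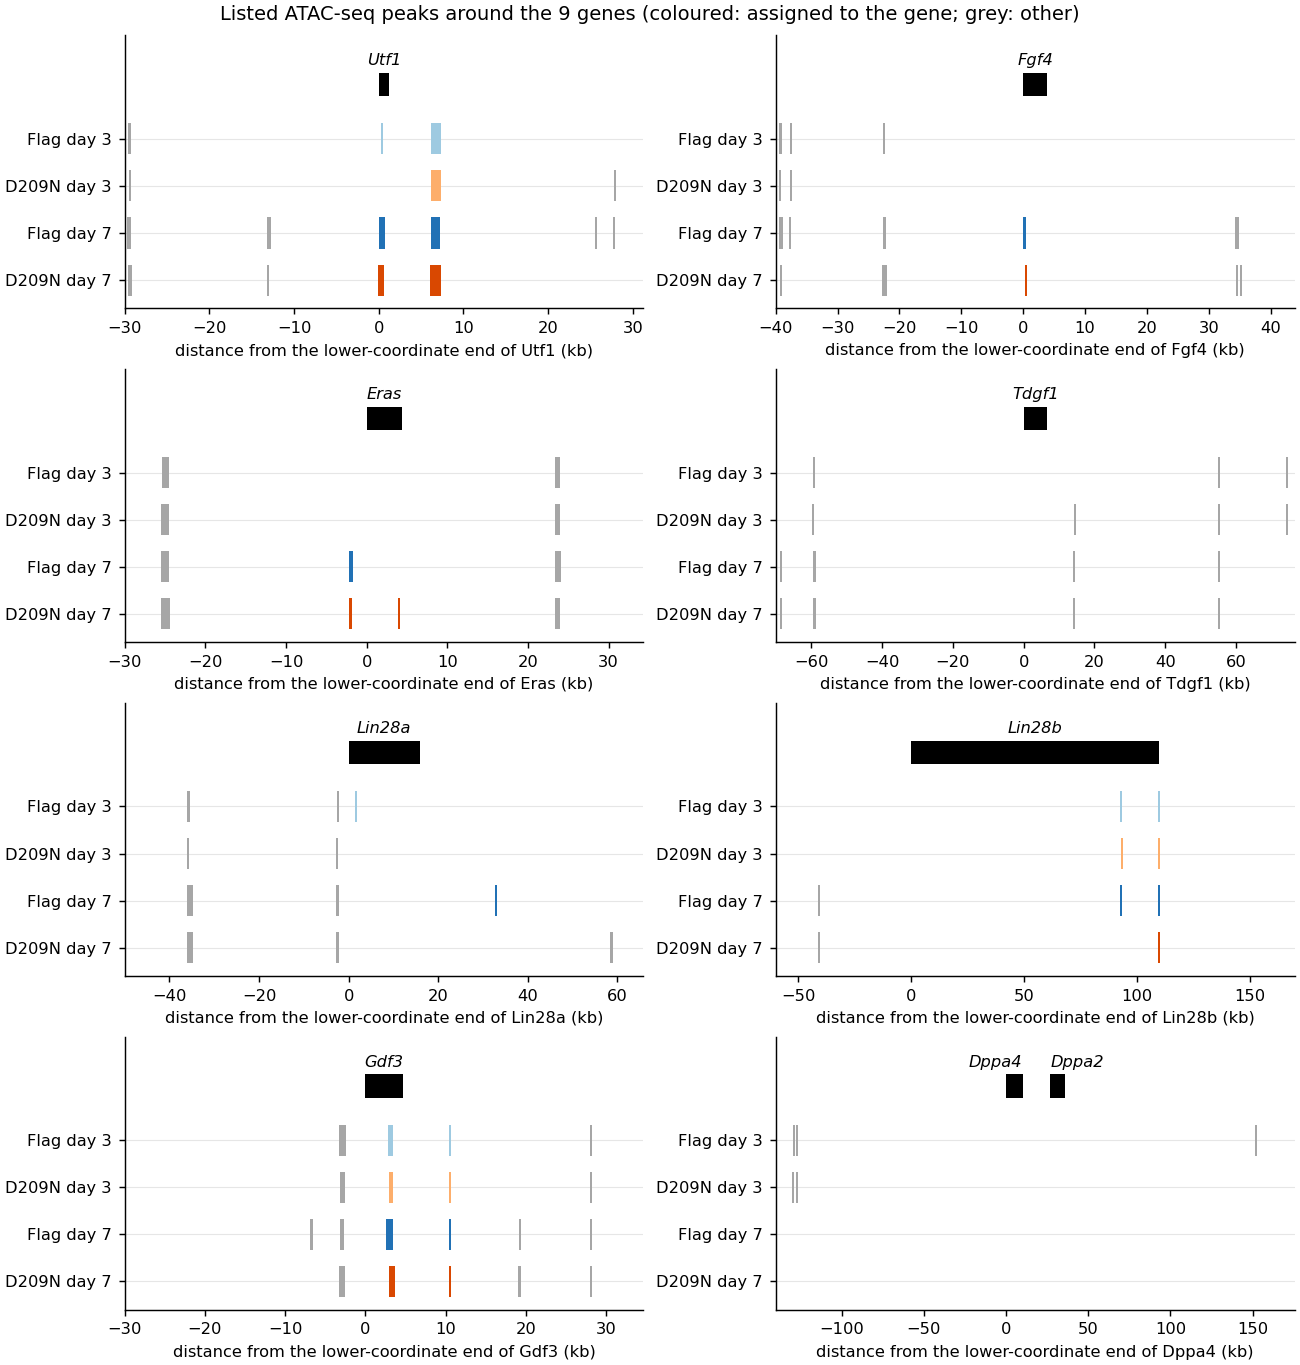
Positions of listed peaks around the genes, one row per list, against the distance in kb from the lower-coordinate end of each gene (black boxes: genes; coloured bars: peaks assigned to the named gene; grey bars: other peaks). Bars too narrow to see are drawn at a fixed minimum width, and the map shows assigned peaks at 6 of the genes and none at Tdgf1, Dppa4 or Dppa2.

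Promoter sequences help to place these peaks. RefSeq entries on GRCm38.p6 were matched for 6 of the 9 genes (Utf1, Eras, Fgf4, Lin28a, Lin28b and Tdgf1) and were not found for Dppa2, Dppa4 and Gdf3. The 250 bases before the start site are given, 5′ to 3′ on the gene's strand, for the 4 genes that had a listed peak within 1 kb of that start site in at least 1 list, and for Tdgf1, which had none. Capitals mark matches to any of 8 motifs searched on both strands: the octamer ATGCAAAT, the SOX words ACAATGG and ACAAAGG, the KLF word CCACCC, the E-box CACGTG, the AP-1 word TGANTCA, the TATA word TATAAA and the GC box GGGCGG.
Utf1 promoter, chr7:139943606-139943855, plus strand: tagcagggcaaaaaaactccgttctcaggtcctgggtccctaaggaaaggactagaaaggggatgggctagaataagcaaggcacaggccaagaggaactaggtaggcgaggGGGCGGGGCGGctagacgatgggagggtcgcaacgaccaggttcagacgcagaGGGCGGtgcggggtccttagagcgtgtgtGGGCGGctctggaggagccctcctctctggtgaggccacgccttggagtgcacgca
Fgf4 promoter, chr7:144861136-144861385, plus strand: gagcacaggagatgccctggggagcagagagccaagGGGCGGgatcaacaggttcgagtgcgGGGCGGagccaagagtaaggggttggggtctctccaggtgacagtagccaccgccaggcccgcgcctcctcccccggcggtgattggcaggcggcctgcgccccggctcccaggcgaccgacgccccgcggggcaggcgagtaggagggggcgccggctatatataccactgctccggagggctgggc
Eras promoter, chrX:7928608-7928857, minus strand: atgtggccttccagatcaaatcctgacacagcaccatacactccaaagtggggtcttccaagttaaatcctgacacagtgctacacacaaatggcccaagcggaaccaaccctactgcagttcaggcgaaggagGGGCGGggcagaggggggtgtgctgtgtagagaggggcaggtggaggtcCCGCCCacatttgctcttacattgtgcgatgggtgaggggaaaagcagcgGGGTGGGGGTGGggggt
Lin28b promoter, chr10:45470202-45470451, minus strand: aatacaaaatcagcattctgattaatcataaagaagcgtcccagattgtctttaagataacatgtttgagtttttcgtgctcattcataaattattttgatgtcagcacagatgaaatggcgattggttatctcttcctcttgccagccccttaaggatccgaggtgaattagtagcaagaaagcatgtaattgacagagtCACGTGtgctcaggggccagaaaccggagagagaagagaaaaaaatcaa
Tdgf1 promoter, chr9:110946159-110946408, minus strand: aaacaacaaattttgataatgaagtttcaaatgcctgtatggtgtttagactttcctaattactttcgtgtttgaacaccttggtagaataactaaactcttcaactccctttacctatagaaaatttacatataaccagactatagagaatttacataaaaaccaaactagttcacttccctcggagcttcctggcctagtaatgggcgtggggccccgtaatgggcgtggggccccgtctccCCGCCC

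The capitals in these sequences are mostly GC boxes, the binding word of Sp and Klf proteins. Utf1 had 4 GC boxes, of which the first 2 share a base, Fgf4 had 2, Eras had 2 and Tdgf1 had 1, and 32.7% of the 32851 promoters in the table hold at least 1. Eras also had 2 KLF words, from -17 to -12 and from -11 to -6 relative to the start site, a word found in 28.1% of promoters. Lin28b had 1 E-box, which 6.02% of promoters hold. No octamer, SOX, AP-1 or TATA word was found in these letters, and the Lin28a promoter matched none of the 8 motifs. Those words occur in 1.60% (octamer), 3.02% (ACAATGG), 5.08% (ACAAAGG), 6.75% (AP-1) and 12.4% (TATA) of promoters. G and C made up 71.2% of the Fgf4 promoter, 61.6% of that of Utf1, 61.2% of that of Lin28a and 58% of that of Eras. In that order they held 21, 14, 7 and 6 CpG dinucleotides. The promoters of Lin28b and Tdgf1 were poorer in G and C, at 39.2% and 42.0% with 6 and 7 CpG. The median promoter of the table had 52.4% and 6 CpG. Peaks lay almost wholly outside these stretches, and only the D209N day 7 peak of Utf1 covered any of them, the last 45 bases before the start site.

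Utf1 (chromosome 7, 139943856 to 139945112, plus strand) had 2 regions, one at its start and one beyond its far end. The start region was listed in Flag day 3 as a peak of 182 bp, from 308 to 489 bp after the start site, was absent from D209N day 3, and was listed in both day 7 lists. At day 7 it measured 611 bp in Flag, from 67 to 677 bp, and 635 bp in D209N, from -45 to 589 bp. The Flag day 3 peak lay wholly inside both day 7 peaks, and 3.18% of the peaks in its list were narrower. The day 7 peaks were wider than 65.9% (Flag) and 65.2% (D209N) of their lists. The second region, chr7:139949953-139951258, starts 4.84 kb past the far end of Utf1 and overlaps no coding gene. It was present in all 4 lists at 1253 bp (Flag) and 1208 bp (D209N) at day 3 and 1080 bp (Flag) and 1290 bp (D209N) at day 7. These are among the widest peaks of the lists, each wider than at least 92.8% of its list. The Utf1 start and this downstream region thus differed within 1 list, D209N day 3, where the start peak was missing and the downstream peak was at the 97.9th percentile of width.

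Fgf4 (chromosome 7, 144861386 to 144865245, plus strand) had 1 region, just inside its start, and it was listed at day 7 only. The Flag peak was 248 bp wide, from 77 to 324 bp after the start site, and the D209N peak was 297 bp wide, from 287 to 583 bp. The 2 peaks were joined into 1 region by a shared stretch of 38 bp, which is 15.3% of the shorter peak. Both were narrow, wider than 15.9% (Flag) and 22.8% (D209N) of their lists. No peak was listed elsewhere in the gene, including its 3′ end, where the known enhancer of Fgf4 lies. The neighbouring growth factor gene Fgf15, 31.3 kb away, had a gene-end peak in the same 2 lists, while Fgf3, 18 kb away on the other side, lacked it in D209N day 3 alone. The Flag day 3 peak at Fgf3 was short, from -22.468 to -22.4 kb relative to the lower-coordinate end of Fgf4. The day 7 peaks there ran from -22.742 to -22.104 kb (Flag) and from -22.749 to -21.984 kb (D209N).

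Of the Nodal-related pair, Tdgf1 had no listed peak and Gdf3 had the same 2 regions in every list. Tdgf1 (chromosome 9, 110939608 to 110946158, minus strand) lies in a stretch of 20.6 kb in which a peak centre would be assigned to it. The nearest region, chr9:110953743-110954317, begins 7.58 kb away, is nearer to Lrrc2, and was listed in D209N day 3 and both day 7 lists. Gdf3 (chromosome 6, 122605403 to 122610087) had a region inside the gene, chr6:122607988-122609056. Its peak was 585 bp wide in Flag day 3, 486 bp in D209N day 3, 877 bp in Flag day 7 and 731 bp in D209N day 7. In both arms it was wider at day 7. This region ends 1031 bp from the nearer gene end and so falls outside the 1 kb window. The second Gdf3 region, chr6:122615809-122616090, lies 5.72 kb beyond the gene on the side of Dppa3. It kept nearly the same width, at 238, 252, 282 and 240 bp in Flag day 3, D209N day 3, Flag day 7 and D209N day 7.

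Eras (chromosome X, 7924276 to 7928607, minus strand) had no listed peak at day 3 in either arm. At day 7 a region past its 3′ end, chrX:7922126-7922539, was listed in both arms, at 400 bp in Flag and 382 bp in D209N. This region lies inside the neighbouring gene Pcsk1n, although the nearest gene end is that of Eras. A second region, chrX:7928283-7928324, between 283 and 324 bp after the Eras start site, was listed in D209N day 7 alone. That peak is 42 bp wide, and 0.361% of the peaks in its list are as narrow or narrower. The gene-end call of Eras in D209N day 7 rests on it. Eras also has the smallest assignable stretch of the 9 genes, 5.15 kb against a median of 46.5 kb over coding genes, since its neighbours are close.

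The let-7 regulators Lin28a and Lin28b differed from each other in every list. Lin28b (chromosome 10, 45376617 to 45486314, minus strand) had a region over its outer upstream end, chr10:45485748-45486776, in all 4 lists. The peak there was 799 bp wide in Flag day 3, 303 bp in D209N day 3, 970 bp in Flag day 7 and 1029 bp in D209N day 7. The D209N day 3 peak was thus the narrowest, and it lay wholly inside each of the other peaks. A second Lin28b region, chr10:45469415-45469901, lay between 300 and 786 bp after the internal start site of the RefSeq promoter entry. It was 432 bp wide in Flag day 3, 176 bp in D209N day 3 and 215 bp in Flag day 7, and it was absent from D209N day 7. The D209N day 3 and Flag day 7 peaks of this region do not overlap each other, and both overlap the Flag day 3 peak. So at Lin28b the outer end was open in every list while the internal start site had a nearby peak in 3 of them.

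Lin28a (chromosome 4, 134003330 to 134019196, minus strand) had no peak near its start site. Its 2 regions were each in 1 Flag list. The first, chr4:134004966-134005192 and 227 bp wide, was in Flag day 3 and lay inside the gene, 1.64 kb from its 3′ end. The second, chr4:134036091-134036220 and 130 bp wide, was in Flag day 7 and lay 16.9 kb upstream of the gene. D209N had neither, on either day. Both peaks were narrow, wider than 8.00% and 2.17% of their lists. The second was the most distant of the 11 assigned regions, so no assignment came near the limit of 100 kb. Among regions just outside the rule, one at the end of Dhdds lay 2.09 kb from Lin28a and was present in all 4 lists.

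The paired genes Dppa2 (chromosome 16, 48310274 to 48319513) and Dppa4 (chromosome 16, 48283735 to 48294292) had no listed peak in or around them. No list held a peak centred within 100 kb of either gene, although peaks there would have been assigned to them over stretches of 73.1 kb for Dppa2 and 118.5 kb for Dppa4. The nearest regions were 116 kb above Dppa2 (chr16:48435401-48435890, in Flag day 3 alone) and 127 kb below Dppa4 (chr16:48156299-48156693, in both day 3 lists). Among coding genes with an assignable stretch at least as long, 16.2% for Dppa2 and 15.1% for Dppa4 had no peak assigned by the nearest end. Peaks that only overlap a gene are left out of that share, which may hold genes with such a peak. For Tdgf1 that share was 21.6%. The other 7 genes had between 3 and 13 peaks of any assignment within 100 kb in each list, which includes peaks at neighbouring genes. Each of those 7 has a coding neighbour between 0 and 18 kb away. Dppa2 and Dppa4 lie 16 kb apart, so their windows largely coincide. The next coding gene, Morc1, is 112 kb from Dppa2 and 137 kb from Dppa4. The counts were not adjusted for gene density.

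**Figure D2:**
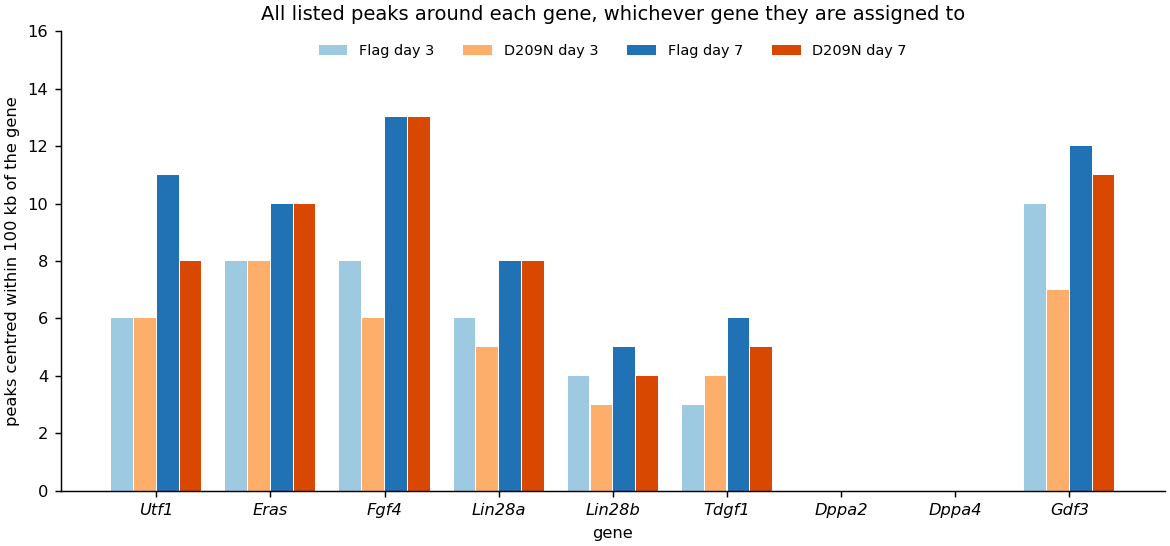
Number of peaks centred within 100 kb of each gene in each list, whichever gene they belong to. Dppa2 and Dppa4 had 0 in every list, and the other genes had between 3 (Tdgf1, Flag day 3, and Lin28b, D209N day 3) and 13 (Fgf4, both day 7 lists).

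The day 3 comparison of the arms asks how D209N and Flag cells differed early in reprogramming. Of the 7 regions of these genes listed in either arm, 2 were in Flag only, the Utf1 start and the 3′ region of Lin28a, against 25.8% of all regions listed in either arm. D209N had 0 regions of its own, against 7.30%. By gene ends, Utf1 was the 1 gene of 9 with a peak in Flag only, which 5.03% of coding genes were, and 0 of 9 had it in D209N only, which 0.809% were. The share of regions in Flag only, 2 of 7, was thus near that of all regions. The 5 shared regions were those of Gdf3 and Lin28b and the downstream region of Utf1. Keeping the 29189 widest peaks trimmed only Flag at day 3, since that is the full length of the D209N list. Flag then had 0 regions that D209N lacked and D209N had 1 that Flag lacked. The assigned peaks numbered 4 in Flag and 5 in D209N. Trimming 1 arm could only move these counts in that direction, so no conclusion is drawn from the change.

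The same comparison at day 7 covered 10 regions. In Flag only were 2, the upstream region of Lin28a and the internal start region of Lin28b, against 15.6% of all regions, and in D209N only was 1, the narrow Eras peak, against 11.7%. Of the 9 genes, 0 had a gene-end peak that D209N lacked, where 2.02% of coding genes did, and Eras had it in D209N only, where 0.973% did. With the 29189 widest peaks of each list, 0 regions differed between the arms at day 7 in either direction. The 2 Lin28a peaks, of 227 bp in Flag day 3 and 130 bp in Flag day 7, lay at different places. Neither recurred in any other list, so they are not a shared feature of the Flag arm. The Utf1 start, which D209N lacked at day 3, was present in both arms at day 7.

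Between day 3 and day 7 the Flag lists gained 3 of 10 regions and lost 1. The gains were those of Fgf4, the region past the 3′ end of Eras and the upstream region of Lin28a, against 28.6% of all regions, and the loss was the 3′ region of Lin28a, against 16.3%. Fgf4 was the 1 gene to gain a gene-end peak, which 6.23% of coding genes did, and 0 lost one, which 0.704% did. The D209N lists gained 4 of 9 regions, at the start of Utf1, at Fgf4 and both Eras regions, against 35.9% of all regions. They lost 1, the internal start region of Lin28b, against 10.3%. Utf1, Eras and Fgf4 gained a gene-end peak in D209N, 3 of 9 genes against 9.02% of coding genes, and 0 lost one, against 0.320%. With the 29189 widest peaks of each list, Flag gained 2 regions and lost 1, and D209N gained 2 and lost 2. Utf1 was then the 1 gene that gained a gene-end peak in D209N, and the calls at Eras and Fgf4 were lost. That setting leaves D209N day 3 whole and trims day 7, so in D209N gains could only fall. Of the 3 genes in the full lists, only Fgf4 gained a gene-end peak in Flag as well, since Utf1 already had one there at day 3. No test of the difference between the arms can be made with 1 list per group.

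**Figure D3:**
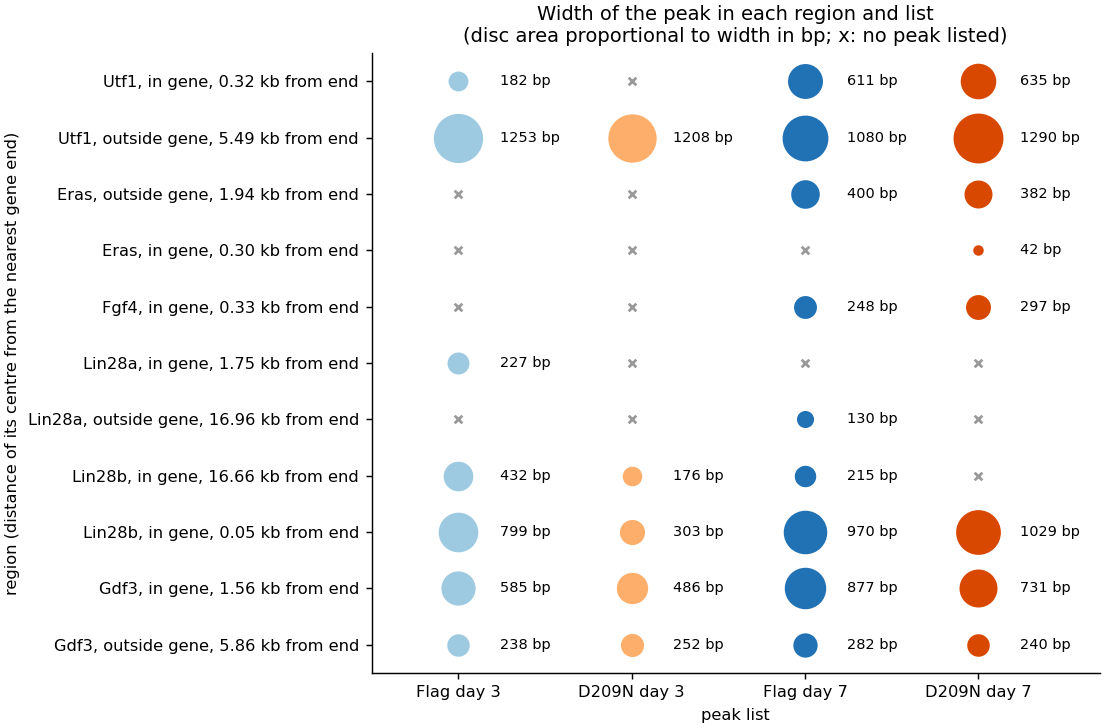
Width in bp of the peak in each of the 11 regions (rows, named by gene and by the distance of the region's centre from the nearest gene end) in each of the 4 lists (columns). Disc area is proportional to width and a cross marks no listed peak: the downstream Utf1 region is the widest in each list, and the Eras peak of 42 bp, in D209N day 7 alone, is the narrowest.

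Regions that came and went were narrow. Of the 29 peaks of these genes, 16 lay in regions of all 4 lists and 11 of those were at or above the median width of their list, while of the other 13 peaks 2 were, both at the Utf1 start at day 7. The same held over all peaks, whose median width in regions of all 4 lists was 610 bp (Flag) and 531 bp (D209N) at day 3 and 681 bp (Flag) and 695 bp (D209N) at day 7. Elsewhere it was 313, 306, 305 and 318 bp in that order. The lists carry no signal, so how close each narrow peak lay to the calling threshold was not tested. The 3 regions present in 1 list alone, at Lin28a and Eras, were 227, 130 and 42 bp wide.

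Genes that work with the 9 were counted in the same way, against the all-gene shares of 55.9% and 51.7% at day 3 and 61.5% and 60.4% at day 7. Gene-end peaks were present at 9, 7, 8 and 8 of 14 regulators of naive pluripotency, taking Flag then D209N at day 3 and Flag then D209N at day 7, or 64.3%, 50.0%, 57.1% and 57.1%, close to those shares. In that order they were present at 8, 8, 10 and 9 of 12 Nodal pathway genes (66.7%, 66.7%, 83.3% and 75.0%) and at 10, 10, 13 and 13 of 13 FGF pathway genes (76.9% at day 3). The let-7 and LIN28 axis had 9, 6, 9 and 9 of 10, and the Ras and PI3K list had 9 of 10 genes in each peak list, and the 4 delivered factors had it in every list. These 4 were also supplied as retroviral copies, which peak positions cannot tell apart from the cells' own genes. Whether reads from those copies entered the peaks was not tested. Nodal, the ligand that Tdgf1 serves, had its gene-end peak in Flag day 7 alone, and its antagonists Lefty1 and Lefty2 had none. In the FGF pathway the genes that changed were Fgfr3, a receptor, and Fgf8 and Fgf15, ligands, each with a gene-end peak at day 7 in both arms and at day 3 in neither. Gdf1, a relative of Gdf3, had it in both day 7 lists and in neither day 3 list. Among the naive regulators, the ones that changed were Zfp42, absent from Flag day 7, Prdm14, in Flag day 7 alone, Nr0b1, in Flag day 3 alone, and Sall4, absent from D209N day 3.

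Some of these genes had the same order of presence over the 4 lists as a member. Utf1 shared its pattern, missing from D209N day 3 alone, with Sall4 and with Igf2bp1, Igf2bp3 and Trim71, the last 3 being let-7 targets in the let-7 and LIN28 list. That pattern was found at 939 coding genes, 4.29% of them. Fgf4 shared its pattern, day 7 in both arms, with Fgfr3, Fgf8, Fgf15 and Gdf1, and with 3.88% of coding genes (850). The pattern of Eras, D209N day 7 alone, occurred at 0.699% of coding genes (153) and at no gene of the related lists. Lin28b, open in every list, had the commonest pattern, found at 11080 genes or 50.6%. Lin28a, Tdgf1, Dppa2, Dppa4 and Gdf3 shared the absence in every list with 37.0% of coding genes (8100). In the related lists it was found at 8 genes: Nanog, Esrrb, Dppa3, Dppa5a, Lefty1, Lefty2, Dis3l2 and Pik3cd. Likeness here is of presence or absence in 4 lists, which share their processing and differ in length.

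**Figure D4:**
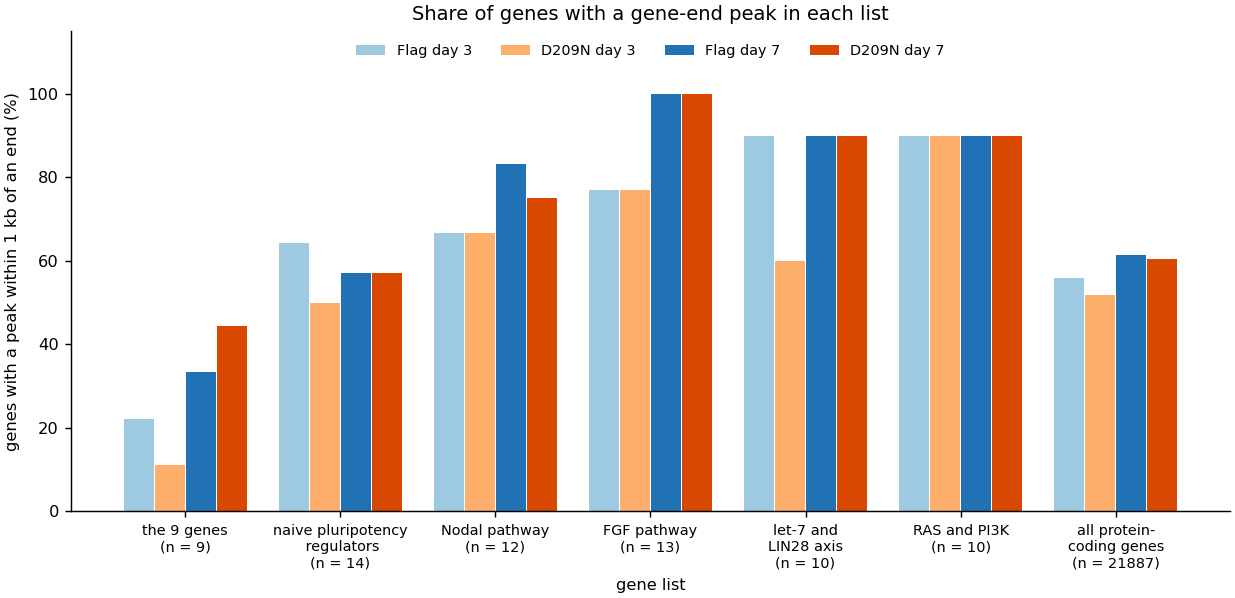
Percentage of genes with a peak overlapping the 1 kb on either side of a gene end, for the 9 genes, 5 related gene lists and all protein-coding genes, with 1 bar per peak list. The 9 genes lie between 11.1% (D209N day 3) and 44.4% (D209N day 7), and all coding genes between 51.7% and 61.5%.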

How the data were processed

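Of 82 samples in the series, the 8 ATAC-seq libraries enter here, as the 4 peak lists that the authors deposited, 1 per group, where a group has 2 libraries. Each list gives chromosome, start, end and name. The deposited values are positions, with no score. Bowtie2 2.3.2, CASAVA and the builds mm10 and GRCm38.p5 are listed in the submitters' processing notes. Whether a list comes from 1 library or from both, how replicates were joined if they were, how transposase offsets were handled, and which caller and threshold made the peaks is not given in the sources used here. Peak names in every list carry rep1, and between 292 and 360 intervals per list share a name with another.

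Intervals on chromosomes 1 to 19, X and Y were used, leaving out 3 mitochondrial intervals per list, with starts written 1-based. Genes came from the RefSeq table of GRCm38.p6, promoters and strand from the RefSeq promoter table. The lists were merged at 1 bp of overlap into regions. Python 3.11.15, numpy 2.4.6 and pandas 2.3.3 were used, and assignment, gene-end and merging steps were checked on simulated intervals. All 9 genes are named, and genes of the related lists (naive pluripotency regulators, Nodal pathway, FGF pathway, let-7 and LIN28 axis, RAS and PI3K, delivered factors) that changed between lists are named, at most 4 per list. Marker lists were fibroblast, epithelial, macrophage, endothelial and pluripotent. The members and lists were chosen with earlier results of these data known. The GC box was added to the motifs after the promoters had been seen. There were 14 alternatives.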

Additional observations from a re-analysis of the deposited data

How the results depend on the processing

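Width was the choice that changed most. With peaks at or above the median width of their list alone, assigned peaks numbered 3 (Flag) and 2 (D209N) at day 3 and 4 in each arm at day 7. Genes with a gene-end peak then numbered 1 (Flag) and 0 (D209N) at day 3, and 2 in each arm at day 7. Regions in Flag only numbered 1 at day 3 and 0 at day 7, and regions in D209N only 0 at day 7. Flag gained 1 and lost 0 regions, and D209N gained 2 and lost 0. With the 29189 widest peaks of each list, assigned peaks numbered 4 in Flag day 3 and 5 in each arm at day 7. This setting leaves D209N day 3 whole, so comparisons with that list trim 1 side only. Gene-end peaks were at 1 gene in Flag day 3 and at 2 genes in each arm at day 7. Regions in Flag only numbered 0 at day 3 and 0 at day 7, and regions in D209N only 1 at day 3 and 0 at day 7. Flag gained 2 regions and lost 1, and D209N gained 2 and lost 2. Under both settings the gene-end peaks of Eras and Fgf4 and the Flag day 3 peak of Utf1 were no longer counted, by construction, since they are narrow.

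A 2 kb window raised the genes with a gene-end peak to 4 in Flag day 3, 2 in D209N day 3 and 5 in Flag day 7, adding Gdf3 in every list, Lin28a in Flag day 3 and Eras in Flag day 7. Asking for an overlap of 50% of the shorter peak made 2 regions D209N only at day 7, because the Fgf4 peaks share 38 bp. Of 72 recomputed values, 43 lay within 1.5 times the reported count and 29 did not, all 29 named here. Assignment within 20 kb changed no count. When all RefSeq genes competed for peaks, assigned peaks numbered 6 (Flag) and 4 (D209N) at day 3. At day 7 they numbered 7 in each arm. No paired analysis was possible because each group has 1 list with no value per replicate, and for the same reason no replicate could be left out.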

Other observations

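Of 15 coding genes that neighbour the 9, 5 had a gene-end peak in every list (50.6% of coding genes) and 5 in none (37.0%), namely Pcsk1n, Lrrc2, Fam240a, Morc1 and Dppa3. In both day 7 lists alone were 3 (3.88%), and missing from D209N day 3 alone were 2 (4.29%). Fgf3 is among these 2, and its Flag day 3 call rests on the short peak given above. Fgf15, beside Fgf4, Kndc1, 2.32 kb from Utf1, and Bves, 4.13 kb from Lin28b, had a gene-end peak in both day 7 lists and in neither day 3 list. Popdc3, 58.2 kb from Lin28b and encoding a relative of the Bves protein, lacked its gene-end peak in D209N day 3 alone. Hdac6, 1.51 kb from Eras, Dhdds, 2.37 kb from Lin28a, and Apobec1, 2.38 kb from Gdf3, had one in every list. At Nanog, which lies with Dppa3 and Gdf3 on chromosome 6, the assigned peaks numbered 2 (Flag) and 1 (D209N) at day 3 and 2 (Flag) and 3 (D209N) at day 7, and Dppa3 had 2, 2, 3 and 3 in that order. A region 14.3 kb from Gdf3 and 1.81 kb from an end of Dppa3 was listed in both day 7 lists and in neither day 3 list. Its Flag day 7 peak was short, from 19.215 to 19.257 kb relative to the lower-coordinate end of Gdf3. Its D209N day 7 peak ran from 19.001 to 19.415 kb.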
